A study of Rattus norvegicus with 16 samples.

Results

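Expressed loci without a gene symbol are the assembled loci of a rat frontal cortex transcriptome that carry a locus number but no gene name. They were taken as every locus whose symbol field was empty, whose mean was at least 1 FPKM over 16 libraries and whose value had the status OK in all 16. FPKM counts sequenced fragments relative to transcript length and to the mapped total of a library. The rule found 3791 loci of 28168 in the table. A further 6351 loci without a symbol had a mean under 1 FPKM, and 21 more reached the level but had a status of FAIL in at least 1 library. The levels and differences below are set beside those of 11033 loci with a symbol that passed the same filters. At the threshold, XLOC_009071 and XLOC_009471 lay just inside with means of 1.00049 and 1.00171 FPKM, and XLOC_027162 and XLOC_027968 just outside with 0.999 and 0.996 FPKM.

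When reads are assembled into transcripts, any covered stretch of the genome that matches no named gene becomes a locus with a number only. Such loci can be long noncoding RNAs, unannotated exons or untranslated ends of a neighbouring gene, retained introns, transcripts of repeats, short RNAs, or protein-coding genes that had no name in the rat annotation at the time. Poly-A selection and random priming both shape which of these reach a library. The labels do not name a strand-specific kit, so a locus and an overlapping antisense transcript cannot be told apart. Coordinates and sequences of these loci were not analysed here, and none is printed.

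All animals were male Sprague-Dawley rats, 11 weeks old, kept on their diet for 7 weeks. The groups were chow diet (chow), high fat diet (HF), high fat diet with 10 days of intraperitoneal PBS (HF_PBS), and high fat diet with 10 days of intraperitoneal 5-AzaD in PBS (HF_5AzaD), with 4 libraries each. 5-AzaD, 5-aza-2′-deoxycytidine, is a nucleoside analogue that inhibits DNA methyltransferases. The labels do not say that the libraries of a group came from separate animals, so p-values measure the spread between these libraries, which may be technical. The letters HFD mean the diet without injections in the design text but mark PBS rats in the sample titles. Each library was grouped by its treatment label, and under the other reading the HF and HF_PBS comparisons would be exchanged. Injection cannot be told apart from anything else that separated the injected from the uninjected libraries.

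The cortical excitatory markers were present in every library but varied, with Slc17a7 at a mean of 548 FPKM and a range of 132 to 823 FPKM. Some libraries stood apart in markers of neighbouring regions. A score for a marker list is the mean log2 value of its genes less each gene's mean over the 16 libraries. The striatum score (11 of 12 genes measured, none at 0 in any library) ran from -0.842 to 0.123 in chow, -0.53 to 2.391 in HF, -0.622 to 1.532 in HF_PBS and -0.864 to -0.254 in HF_5AzaD. It was above 1 in HF 8 and in HF_PBS 2, 3 and 4. The myelin score (12 of 12 genes) reached 1.257 and 1.244 in HF_PBS 3 and 4 and was at most 0.429 in the other 14 libraries. The hypothalamus score (4 of 6 genes at a mean of 1 FPKM or more, Oxt listed at 0 in at least 1 library) ran from -1.309 to -0.844 in chow, -0.965 to -0.213 in HF, -0.813 to 3.541 in HF_PBS and -1.115 to 1.304 in HF_5AzaD. It was above 1 in HF_PBS 3 and 4 and in HF_5AzaD 5 and 7. Those 4 libraries also had the lowest cortical excitatory scores, -1.583, -0.374, -0.867 and -1.056. That score ran from 0.35 to 0.498 in chow, -0.259 to 0.707 in HF, -1.583 to 0.382 in HF_PBS and -1.056 to 0.376 in HF_5AzaD. In bulk tissue, fewer cells of a type and less RNA per cell cannot be told apart. Total read counts per library are not given in the sources used here. The ratio of values at barely covered loci with a symbol (mean under 0.05 FPKM) put 11 libraries at 30.1% to 54.7% of the depth of chow 2, and 4 libraries gave no clear ratio.

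Loci without a symbol were lower and more variable than loci with one. Their median level was 4.63 FPKM against 11.7 FPKM, and 39.1% of them lay between 1 and 3.16 FPKM against 16.7% of loci with a symbol. The spread around the group means, as a median residual SD of log2(FPKM + 0.5), was 0.305 against 0.212. The residual SD was also larger within every band of level, for example 0.359 against 0.309 at 1 to 2 FPKM, 0.268 against 0.194 at 5 to 20 FPKM and 0.241 against 0.188 at 20 to 100 FPKM. At least 1 library was listed at 0 for 248 loci without a symbol (6.54%) and for 100 with one (0.906%).

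**Figure D1:**
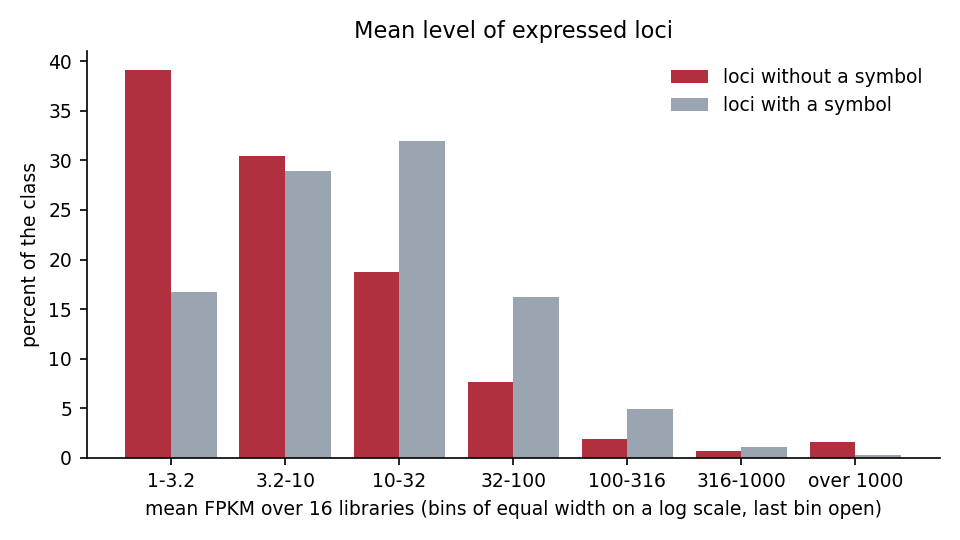
Percent of each class (vertical axis) by mean FPKM over 16 libraries (horizontal axis, bins of equal width on a log scale with the last bin open), for 3791 loci without a symbol and 11033 with one. Loci without a symbol are over-represented in the lowest bin (39.1% against 16.7%) and in the open bin above 1000 FPKM (1.58% against 0.236%).

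XLOC_003878 had the smallest SD of log2(FPKM + 0.5) over the 16 libraries, 0.065, with values from 1.30 FPKM in HF 8 to 1.67 FPKM in HF_PBS 3. It is numbered next to Mgat1, an enzyme of N-glycan synthesis. XLOC_015885 (SD 0.071, mean 12.1 FPKM) and XLOC_020609 (SD 0.076, mean 9.36 FPKM) followed. None of these 3 passed the test in any of the 4 comparisons of an injected with an uninjected group. They were chosen by an SD over all 16 libraries, which leaves little room for a group difference, so nothing is read from this.

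At the other end, 60 loci had a mean of at least 1000 FPKM, against 26 loci with a symbol, and 40 of them lay above the highest locus with a symbol. These 60 held 98.5% of the summed mean FPKM of all 3791, and XLOC_008165 alone held 64.2%. XLOC_008165 read 4313810, 1076510, 3475530 and 5249520 FPKM in chow, 8152520, 5562850, 227865 and 5139680 in HF, 1527290, 801335, 1867930 and 0 in HF_PBS, and 2845640, 2739250, 655975 and 823941 in HF_5AzaD. It exceeded 1000000 FPKM in 11 libraries and was listed at 0 in HF_PBS 4, and the 4 groups overlapped. FPKM divides by transcript length, so a few fragments on a very short transcript can give a very high value. Transcript lengths were not analysed here, and these values are not read as abundance. XLOC_014729 followed with a mean of 225648 FPKM, then XLOC_018014 with 150966, XLOC_018010 with 123932, XLOC_024151 with 117004 and XLOC_003477 with 83563 FPKM.

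Many of these very high values were whole multiples of a shared amount. Within a library, 33 of the 60 loci fell into 13 classes whose values were whole multiples of one shared amount, to a relative tolerance of 2e-05. Counted in such steps, 79.0% of the 496 values were at most 10, and 28 of the 33 loci had a median of at most 10 steps. XLOC_019790, with a mean of 61360 FPKM, had a median of 32.5. XLOC_014729 and XLOC_018010 held the very same value in 3 libraries, for example 223141 FPKM in HF 8. A step is the largest amount found to divide the values of the few loci of a class in a library. It can hold several fragments, and in a class of 2 or 3 loci it rests on as few values. The step of 1 class of 3 loci was 387.973 FPKM in HF_PBS 3 and 1516.37 FPKM in HF_PBS 4. If fragments count whole and alike for all loci of a class, the number of steps is only a lower bound on the fragments behind a value. Fragment counts were not analysed here, so this was not tested. The 3 most variable loci were of this level too. XLOC_009990 (SD of log2 values 8.01), XLOC_024164 (7.77) and XLOC_003005 (7.68) were listed at 0 in some libraries of a group and far above 1000 FPKM in others.

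**Figure D2:**
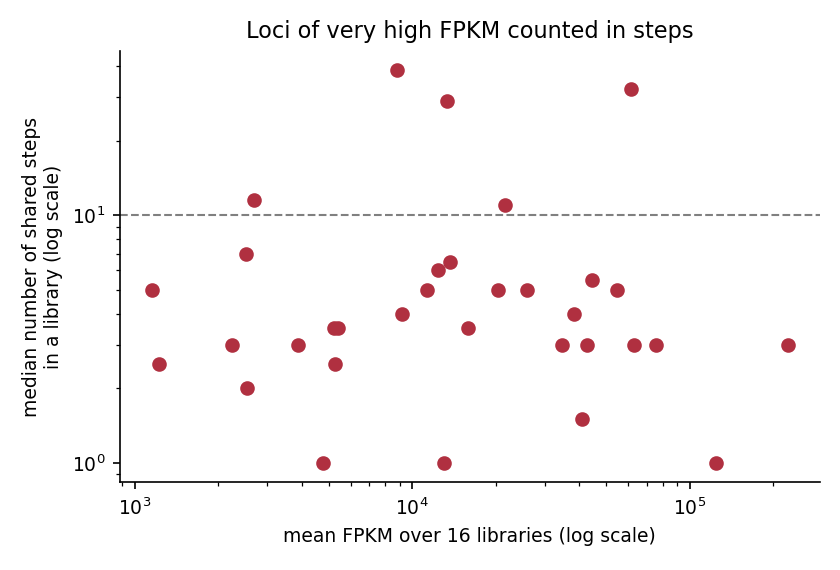
Median number of shared steps in a library (vertical axis, log scale) against mean FPKM over 16 libraries (horizontal axis, log scale) for the 33 loci of at least 1000 FPKM that share a step with another locus; the dashed line marks 10 steps. 28 of the 33 points lie on or below the line. The number of steps is a lower bound on fragments only if these count whole and alike within a class, which was not tested.

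The numbers of loci with a symbol followed the genome closely. Of the loci with a symbol, 83.0% were found by name in the RefSeq table (assembly GRCr8, used for names and order only), 98.4% of consecutive matched pairs lay on one chromosome, and 89.7% of those pairs were in ascending order. Order inside stretches without a symbol could not be checked this way, so places below are places in the numbering. Loci without a symbol took 2 kinds of place there. There were 33 runs of at least 30 consecutive numbers without a symbol, the longest of 711, while the longest shorter run had 21. These long runs held 6351 loci, of which 1624 (25.6%) were expressed at the level of the rule. Outside them 2167 of 3812 loci (56.8%) were. The median level was alike in both, 4.92 and 4.48 FPKM, but 58 of the 60 loci of at least 1000 FPKM lay in long runs.

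Outside long runs, neighbouring loci without a symbol varied together. After group means were removed, the correlation over the 16 libraries between loci 1 number apart had a median of 0.324 over 487 pairs, and 17.7% of pairs exceeded 0.7. At 2 numbers apart the median was 0.092 and at 5 apart 0.041. In long runs it was 0.11 at 1 number apart, and between a locus without a symbol and the next locus with one it was 0.055, against 0.069 for 2 loci with a symbol. The pairs share libraries and their depth, so these are descriptions. XLOC_023772 and XLOC_023773 had the highest value, 0.97, followed by XLOC_007403 and XLOC_007404 with 0.963 and by XLOC_027617 and XLOC_027618 with 0.956. Loci that vary this closely are not separate observations of a group difference.

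Between injected and uninjected animals on high fat diet, loci without a symbol were called more often lower than higher, and the lower ones differed by more. In HF_PBS against HF, 320 were higher and 703 lower at an adjusted p under 0.05 by limma, 27.0% in all, where 23.9% of all 14824 loci tested were called (10.7% higher and 13.2% lower). Loci with a symbol were evenly split, with 1260 higher and 1253 lower (22.8%). The median log2 difference was -0.088 for loci without a symbol and 0.04 for those with one. Of the 703 lower loci, 339 (48.2%) differed by more than 1 on the log2 scale, against 161 of 1253 (12.8%) with a symbol. Among the higher ones 17.2% did, against 7.94%. The median SE was 0.2097 without a symbol and 0.1493 with one, in this and the other comparisons. A locus without a symbol thus mostly needed a larger difference to be called, which bears on the sizes of called differences here and below.

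The larger share of lower calls was seen within most bands of level. At 1 to 2 FPKM, 13.8% of loci without a symbol were lower in HF_PBS against 3.4% of those with one. At 5 to 20 FPKM the shares were 22.1% and 13.7%, and at 20 to 100 FPKM 21.8% and 13.1%. At 100 to 1000 FPKM they were nearly equal, 10.1% and 9.42%. Over all levels, higher calls made up 8.44% of loci without a symbol and 11.4% of those with one. The shares were 4.07% and 6.12% at 1 to 2 FPKM, 11.0% and 10.5% at 5 to 20 FPKM, 15.2% and 16.2% at 20 to 100 FPKM, and 1.67% and 7.69% at 1000 FPKM and over. Long runs were the more even place, with 189 higher and 266 lower loci, whereas outside them 131 were higher and 437 lower.

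**Figure D3:**
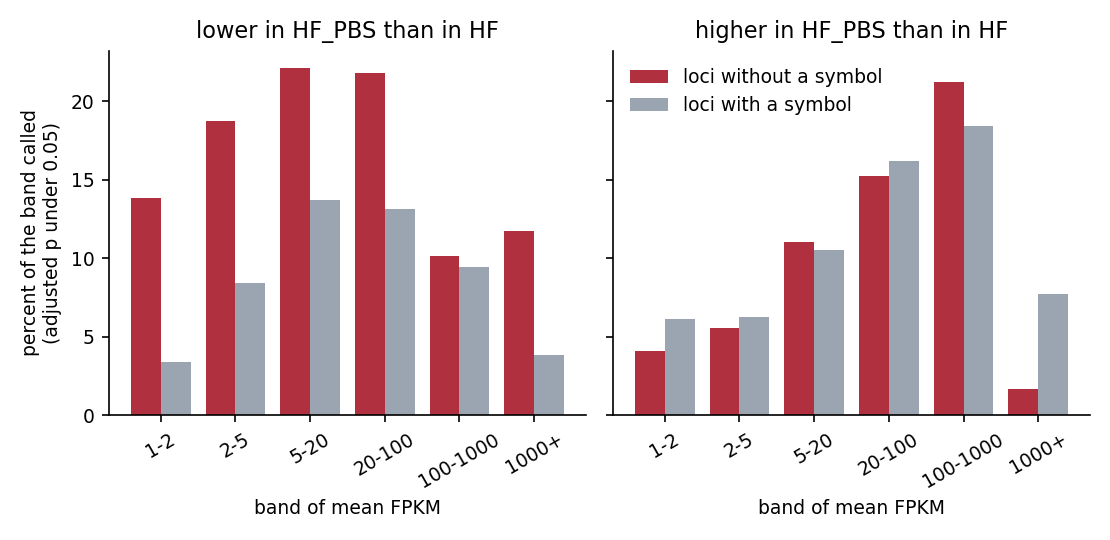
Percent of loci called lower (left) and higher (right) in HF_PBS than in HF at an adjusted p under 0.05 (vertical axis) by band of mean FPKM (horizontal axis), for loci without and with a symbol. The bars for lower calls differ most below 100 FPKM, for example 22.1% against 13.7% at 5 to 20 FPKM, and are nearly equal at 100 to 1000 FPKM (10.1% and 9.42%).

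The difference also showed in whole libraries. The median locus without a symbol stood at 4.60 to 4.96 FPKM in the 8 chow and HF libraries and at 3.95 to 4.43 FPKM in the 8 injected ones, with no overlap. The median locus with a symbol stood at 11.3 to 11.6 FPKM and 11.2 to 11.4 FPKM, which overlapped.

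**Figure D4:**
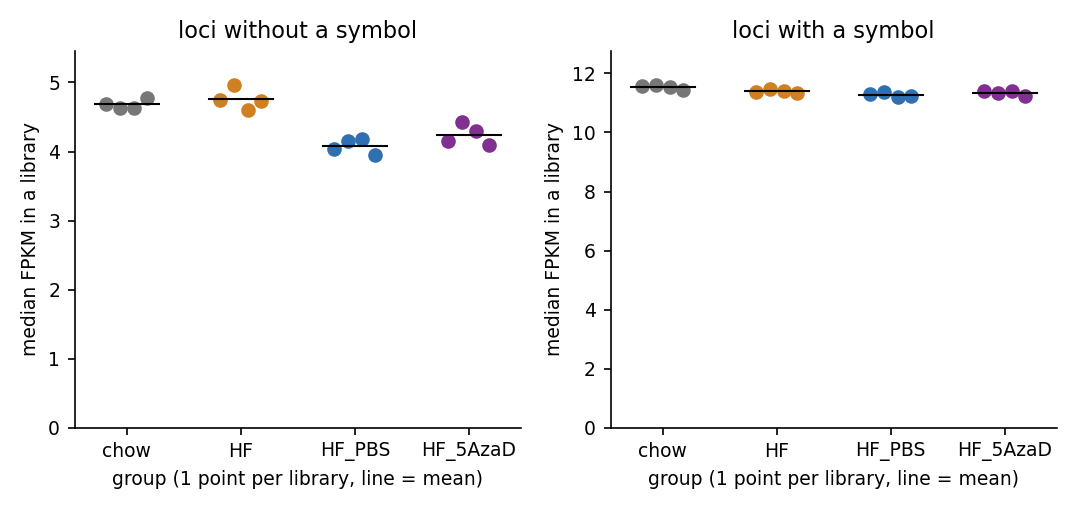
Median FPKM in each library (vertical axis, from 0) by group (horizontal axis), for loci without a symbol (left) and with one (right); each point is a library and the line is the group mean. The injected libraries lie at 3.95 to 4.43 FPKM and the uninjected ones at 4.60 to 4.96 FPKM on the left, while the points on the right lie between 11.2 and 11.6 FPKM.

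XLOC_028030, in a long run numbered between Rbmx and Bex4, had the lowest p of the loci named in this comparison. It read 12.1, 9.87, 10.3 and 11.2 FPKM in chow, 12.6, 14.3, 7.41 and 11.7 in HF, 0.924, 1.20, 0.560 and 1.13 in HF_PBS, and 0.469, 2.66, 1.84 and 0.551 in HF_5AzaD. Every injected library lay below every uninjected one. On the log2(FPKM + 0.5) scale, which understates the change of low loci, it fell by 3.03 from HF to HF_PBS (SE 0.324, adjusted p 0.000729). XLOC_013942, numbered between Rnf180 and Kif2a, read 9.51, 9.74, 6.06 and 7.73 FPKM in HF and 1.07, 0, 1.26 and 0 in HF_PBS, and fell by 3.24 (adjusted p 0.00271). XLOC_007239 read 27.1, 63.5, 17.5 and 24.1 FPKM in HF and 5.91, 5.10, 2.45 and 2.47 in HF_PBS, and fell by 2.82 (adjusted p 0.00212). XLOC_007787, next to the eye proteoglycan gene Optc in number, went from 16.2, 32.8, 8.17 and 18.6 FPKM to 2.32, 1.91, 1.26 and 1.20, a fall of 3.04 (adjusted p 0.00393). In each of these the groups were apart. XLOC_027957 was called with a log2 difference of -3.82 (adjusted p 0.0467), but 12 of the 16 fits with 1 library left out lost the call, with adjusted p-values up to 0.133.

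Among the loci higher in HF_PBS, XLOC_024165 read 0, 0, 6.04 and 6.22 FPKM in HF and 38.7, 34.2, 25.3 and 35.7 in HF_PBS. It rose by 4.21 on the log2 scale (SE 0.784, adjusted p 0.00392 by limma). In chow it read 4.75, 14.2, 10.7 and 3.63 FPKM, and HF_PBS against chow did not pass (2.12, adjusted p 0.0559 by limma). XLOC_019766 read 0.844, 0, 0.889 and 0 FPKM in HF and 3.02, 4.69, 9.58 and 3.71 in HF_PBS, a rise of 2.67 (adjusted p 0.00759). XLOC_013412, the single locus numbered between the microtubule-associated kinase gene Dclk1 and Mab21l1, read 11.9, 0, 7.96 and 1.20 FPKM in HF and 20.5, 25.1, 23.5 and 38.8 in HF_PBS (log2 difference 3.12, adjusted p 0.016). Its call was lost without HF_PBS 4, at an adjusted p of 0.0532 by limma. For this locus, too, HF_PBS against chow did not pass (2.17, adjusted p 0.0616 by limma). XLOC_014697 had the largest difference among called higher loci with groups apart, 5.995 (SE 1.78, adjusted p 0.0266 by limma). It went from at most 0.654 FPKM in HF to 184, 202, 11.98 and 12.4 in HF_PBS. In chow, however, it read 129, 3.38, 104 and 0.182 FPKM, and HF_PBS against chow did not pass (1.85, adjusted p 0.444 by limma). Its call against HF was lost without HF 6, HF_PBS 1 or HF_PBS 2. XLOC_024273 (2.93, adjusted p 0.0393 by limma) lost it in 7 of 16 such fits. Its HF_PBS against chow difference did not pass (2.39, adjusted p 0.0739 by limma).

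**Figure D5:**
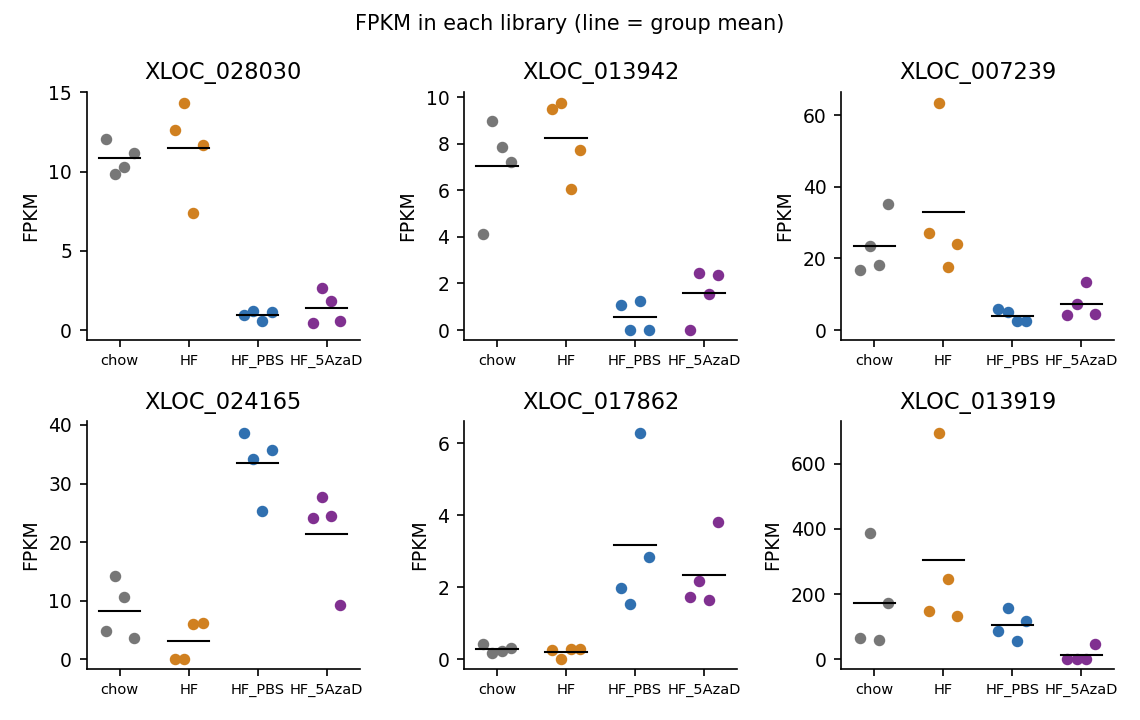
FPKM in each library (vertical axis) by group (horizontal axis) for 6 loci without a symbol; each point is a library and the line is the group mean. XLOC_028030, XLOC_013942 and XLOC_007239 are lower and XLOC_024165 and XLOC_017862 higher in HF_PBS than in HF, and XLOC_013919 is listed at 0 in 3 of 4 HF_5AzaD libraries.

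Leaving out libraries changed these counts. Loci with a symbol were not counted in these fits or in those below. The changes are therefore not read as particular to loci without a symbol. Without HF 6 they were 139 higher and 415 lower, and without HF_PBS 4 they were 133 and 429. When the 4 libraries with a striatum score above 1 were left out together, HF_PBS kept 1 library, assumed to vary like the others, and 0 loci were called in either direction. Without the 4 libraries of hypothalamus score above 1, which leaves 2 HF_PBS libraries, 59 were higher and 303 lower. The part of these markers in the result was not tested further.

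Against chow, HF_PBS had 438 loci without a symbol higher and 739 lower, 31.0% where 28.2% of all loci tested were called (12.4% higher and 15.7% lower). With a symbol 1404 were higher and 1592 lower (27.2%). Of the 739 lower loci 42.8% differed by more than 1 on the log2 scale, against 19.0% of those with a symbol. XLOC_022463, 2 numbers after Akt1, the gene of a kinase of insulin signalling, read 4.90, 0, 0 and 0 FPKM in chow and 9.85, 6.17, 11.7 and 27.3 in HF_PBS, and rose by 3.77 (SE 0.955, adjusted p 0.012). XLOC_024811, between the transcriptional corepressor gene Tle3 and the integrin gene Itga11, read 7.96, 2.56, 2.09 and 1.81 FPKM in chow and 12.01, 21.3, 19.6 and 35.7 in HF_PBS, and rose by 2.58 (adjusted p 0.00814). XLOC_010655 rose by 2.37 (adjusted p 0.00469), from at most 1.41 FPKM in chow to at least 2.19 FPKM in HF_PBS. XLOC_007288 was listed at 0 in all 4 chow libraries and read 0.764, 2.96, 10.3 and 0.943 FPKM in HF_PBS (adjusted p 0.0195), a call lost without HF_PBS 3 (adjusted p 0.0575).

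Among called loci with groups apart, the 5 largest falls from chow to HF_PBS were in loci listed at 0 in at least 2 HF_PBS libraries. XLOC_009990 read 82084, 61410, 65472 and 149936 FPKM in chow and 0, 0, 56162 and 0 in HF_PBS, with an adjusted p of 0.0437. The others were XLOC_024164 (adjusted p 0.0461), XLOC_007303 (0.0451), XLOC_008247 (0.0263) and XLOC_019485 (0.0245). Each of these 5 lost its call in at least 4 of 16 fits with 1 library left out. Without chow 3, chow 4, HF_PBS 3 or HF_PBS 4, the count of higher loci went to 281, 271, 273 or 189, and without HF_PBS 4 that of lower ones went to 470. With the 4 libraries of high striatum score left out, 0 were higher and 1 lower, and with those of high hypothalamus score left out 55 and 262.

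In HF_5AzaD, too, more loci without a symbol were lower than higher. Its striatum scores were all below 0, but 2 of its 4 libraries had a hypothalamus score above 1, which no uninjected library had. Against HF, 224 loci without a symbol were higher and 474 lower, 18.4% where 14.2% of all loci were called (6.61% higher and 7.64% lower), while with a symbol 756 were higher and 658 lower (12.8%). Against chow, 291 were higher and 471 lower, 20.1% where 16.3% of all loci were called (7.18% higher and 9.11% lower), and with a symbol 773 and 879 (15.0%). Of the lower loci without a symbol, 47.9% and 46.1% differed by more than 1 on the log2 scale, against 10.9% and 14.2% with one. Without the 4 libraries of high striatum score, 143 were higher and 364 lower against HF, and 329 and 510 against chow. The libraries left out there include HF 8 but no chow or HF_5AzaD library, so both groups of the comparison with chow stayed whole. Without the 4 of high hypothalamus score the counts were 105 and 313 against HF and 49 and 163 against chow. That leaves 2 HF_5AzaD libraries.

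XLOC_013919, numbered between Pik3r1, a regulatory subunit gene of PI 3-kinase, and Srek1, a splicing regulator gene, was listed at 0 in 3 libraries, all of HF_5AzaD. It read 63.8, 388, 59.6 and 174 FPKM in chow, 149, 696, 247 and 132 in HF, 86.5, 158, 57.2 and 116 in HF_PBS, and 0, 0, 0 and 47.3 in HF_5AzaD. It was lower in HF_5AzaD than in HF (log2 difference -7.27, SE 1.20, adjusted p 0.00689) and than in chow (-6.35, adjusted p 0.00954). XLOC_027027 read 21.1, 12.3, 9.78 and 14.5 FPKM in HF and 1.24, 0, 0 and 4.30 in HF_5AzaD, and fell by 3.58 (adjusted p 0.00716). XLOC_009088 read 73.6, 129, 63.6 and 40.2 FPKM in HF and 10.2, 11.7, 19.3 and 9.86 in HF_5AzaD, and fell by 2.47 (adjusted p 0.00689). XLOC_018578, next to the nuclear pore gene Nup210 in number, fell by 2.51 (adjusted p 0.011). XLOC_028030 fell by 2.82 against HF (adjusted p 0.00286). Against chow it fell by 2.77 (adjusted p 0.00428).

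Higher loci in HF_5AzaD included XLOC_017862, which read 0.419, 0.177, 0.230 and 0.324 FPKM in chow and 1.74, 2.17, 1.65 and 3.82 in HF_5AzaD and rose by 1.80 (adjusted p 0.00858). XLOC_022566 rose by 2.00 against chow (adjusted p 0.0112), from at most 1.00 FPKM to at least 2.497 FPKM. XLOC_003309 read 4.67, 1.70, 1.58 and 0 FPKM in HF and 13.4, 7.66, 11.3 and 8.69 in HF_5AzaD, and rose by 2.51 (adjusted p 0.0114). XLOC_017794, a locus of high values, read 5741, 2664, 4690 and 2523 FPKM in HF and 33398, 21591, 19479 and 11330 in HF_5AzaD. It rose by 2.45 (adjusted p 0.00689 by limma). Counted in the shared steps above, its values were 2, 1, 2 and 1 in HF and 17, 10, 9 and 7 in HF_5AzaD. The rise is therefore not read as abundance. XLOC_018252, whose neighbours in number on both sides are loci of the muscle actin regulator gene Lmod2, read at most 0.105 FPKM in HF. In HF_5AzaD it read 4.69, 2.17, 3.78 and 1.75 FPKM (2.63, adjusted p 0.0169 by limma), a call lost without HF 6. It also read 3.71 FPKM in chow 3 and 1.85 in HF_PBS 2, and HF_5AzaD against chow did not pass (1.845, adjusted p 0.0515 by limma). XLOC_023490, between the stress-response gene Gadd45b and Tmprss9, rose by 1.93 against chow (adjusted p 0.0224), a call lost without chow 2, 3 or 4 or HF_5AzaD 7.

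The counts of HF_5AzaD moved most with single libraries. Against HF they were 44 higher and 147 lower without HF 6, 132 and 299 without HF_5AzaD 3, and 48 and 146 without HF_5AzaD 7, and the higher count was 119 without HF 8. With only the 2 groups in the fit they were 3 and 13. Against chow they were 57 and 116 without HF_5AzaD 7, 178 and 294 without chow 1, 114 and 220 without chow 2, 100 and 197 without chow 3, and 100 and 168 without chow 4.

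The 2 pairs of comparisons that share no library overlapped in part. There were 703 loci without a symbol lower in HF_PBS than in HF and 471 lower in HF_5AzaD than in chow. Of these, 370 were in both, 52.6% of the first and 78.6% of the second. With a symbol, 560 lower loci were in both (44.7% and 63.7%). Of the higher ones without a symbol 142 were in both (44.4% and 48.8%), and of those with one 434 (34.4% and 56.1%). Across the 3791 loci the 2 sets of log2 differences had r = 0.695, against 0.726 for the 11033 loci with a symbol. For HF_PBS against chow and HF_5AzaD against HF, 352 lower loci without a symbol were shared (47.6% and 74.3%) and r was 0.587. With a symbol, 454 lower loci were shared (28.5% and 69%) and r was 0.64. Loci are not independent replicates, and both pairs set injected against uninjected libraries.

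High fat diet alone gave no call. In HF against chow 0 loci without a symbol passed, and 0% of all loci did, with a lowest adjusted p of 0.682 by limma. At an unadjusted p under 0.05 by limma, 133 were higher (3.51%) and 111 lower (2.93%), where 3.17% and 3.71% of all loci tested were. Groups did not overlap at 213 loci (5.62%), where 6.95% of all loci tested did not. XLOC_018826 had the lowest p among those named and read 1.49, 0.321, 0 and 0 FPKM in chow and 15.4, 31.0, 16.8 and 2.90 in HF. Its log2 difference of 4.04 (SE 0.771) did not pass. XLOC_016575, between Srsf6, a splicing factor gene, and the kinase gene Sgk2, read 2.44, 2.18, 2.19 and 3.48 FPKM in chow and 4.91, 5.32, 5.18 and 4.35 in HF (0.84, not past the test). XLOC_014239, between the interleukin 6 receptor gene Il6r and Hax1, read 25.2, 25.2, 27.2 and 26.4 FPKM in chow and 19.7, 18.4, 19.8 and 20.6 in HF (-0.39, not past the test).

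5-AzaD against its vehicle gave no call either. In HF_5AzaD against HF_PBS 0 loci without a symbol and 0% of all loci passed, with a lowest adjusted p of 0.586 by limma among loci without a symbol. At an unadjusted p under 0.05 by limma, 183 were higher (4.83%) and 117 lower (3.09%), where 3.64% and 3.78% of all loci tested were. Groups did not overlap at 104 loci (2.74%), where 2.4% of all loci tested did not. XLOC_013919 had a log2 difference of -5.97 (SE 1.20) and did not pass. It was the 1 locus without a symbol past the test without HF_5AzaD 7, or without the 4 libraries of high hypothalamus score. Both leave out the 1 HF_5AzaD value above 0, so that group then has no spread, and nothing is read from this. XLOC_003257 read 0.783, 1.70, 1.21 and 0.621 FPKM in HF_PBS and 2.51, 4.23, 2.76 and 2.55 in HF_5AzaD (1.18, SE 0.229), and XLOC_027961 read 1.66, 1.35, 0.984 and 1.25 FPKM and 2.66, 2.06, 2.49 and 2.76 (0.73). Neither passed.

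Few loci without a symbol had r above 0.9 with the 5 marker scores compared. Over the 16 libraries, 6 (0.158%) had r above 0.9 with the myelin score, against 87 loci with a symbol (0.789%). For the striatum score there was 1, against 15, and for the immediate early score 0, against 4. For the cortical excitatory score there were 13 (0.343%), against 85 (0.77%), and for the hypothalamus score 7 (0.185%), against 27 (0.245%). At r above 0.8 there were 134 (3.53%) for cortical excitatory, against 538 (4.88%), and 97 (2.56%) for hypothalamus, against 364 (3.3%). For myelin there were then 27, against 198, for striatum 8, against 37, and for immediate early 0, against 11. Loci that fell as a score rose were not counted. The loci with a symbol include the genes that make up each score, which no locus without a symbol can be. These are 12 genes for myelin, 11 for striatum, 11 for immediate early, 6 for cortical excitatory and 4 for hypothalamus. How many of them had r above 0.9 or 0.8 was not counted, so the classes are not compared further. XLOC_000435, the single locus numbered between Dmkn and Lgi4, the gene of a secreted protein of peripheral myelination, followed the myelin score with r = 0.971. It read 7.32 and 8.84 FPKM in HF_PBS 3 and 4 and at most 5.20 FPKM elsewhere. XLOC_015176 followed the striatum score with r = 0.904 and read 6.09 FPKM in HF 8, 3.75, 4.13 and 5.07 in HF_PBS 2, 3 and 4, and at most 2.65 in the other libraries. XLOC_018923, between Shfm1 and Dlx5, a homeobox gene of GABAergic neuron development, followed with r = 0.859 and read 5.27 FPKM in HF 8. Scores and loci share the same libraries, so these are descriptions.

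Of the 21 loci left out for their status, XLOC_010367 had the highest mean, 116.9 FPKM, followed by XLOC_004645 with 105.1, XLOC_018672 with 72.0, XLOC_007776 with 66.3 and XLOC_013133 with 65.7 FPKM. Each had the status FAIL in 1 to 3 libraries.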

How the data were processed

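RNA from frontal cortex was enriched for poly-A, fragmented, primed at random and sequenced on an Illumina HiSeq, per the labels' protocols. The authors deposited FPKM values for each locus and library, each with a status. The submitters' processing notes name the build rn5 and, with no version or role, Bowtie, Bowtie2, TopHat, TopHat2, Cuffdiff and Cufflinks. No strand setting is given in the sources used here. Columns of libraries from other series numbered 0.

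Loci with the status OK in all 16 libraries and a mean of at least 1 FPKM were tested, 14824 in all, with limma 3.58.1 in R 4.3.3 on log2(FPKM + 0.5), 1 mean per group and a mean-dependent prior (12 residual degrees of freedom). P-values were Benjamini-Hochberg adjusted over all of them, and a call is an adjusted p under 0.05. FPKM are not counts and no count test was run; the script was tested on simulated data. Python 3.11.15, numpy 2.4.6, pandas 2.3.3 and matplotlib 3.10.9 were used for steps and plots.

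Named loci are those of highest mean, the 5 largest called differences per direction with groups apart (without calls, the 3 lowest p), the most and least variable, those at the threshold, those following a marker score, and the highest left out for status. The loci, lists and this rule were chosen with earlier results of these data known; the steps, runs and neighbours by number were chosen after seeing the table. Alternatives were other pseudocounts, filters, scalings, weights and samples, and each library left out.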

Additional observations from a re-analysis of the deposited data

Results flagged for a closer look

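Among the 63 named loci, 252 groups of 4 libraries were screened for a library far from the other 3, by the gap on the log2 scale as a share of the group's range. This found 31 values, where chance flags about 1 in 20 groups. No explanation was tested.

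Loci of very high values gave 13 of them, all but 4 being a library listed at 0. XLOC_008165 read 227865 FPKM in HF 7 and 0 in HF_PBS 4. XLOC_018010 read 0 in HF 5, XLOC_024161 read 0 in HF 7 and HF_PBS 4, and XLOC_003005 read 0 in chow 1 and HF_PBS 4. XLOC_009990 read 0 in HF 7 and HF_5AzaD 6, and 56162 FPKM in HF_PBS 3, whose other 3 libraries were listed at 0. XLOC_024164 read 0 in HF 8, and 10742 FPKM in HF_PBS 2 and 17079 FPKM in HF_5AzaD 6 beside 3 libraries at 0.

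At ordinary levels, 1 library stood above 3 at 0 for XLOC_013919 (47.3 FPKM in HF_5AzaD 7), XLOC_019766 (0.872 in chow 2), XLOC_022463 (4.90 in chow 1 and 8.91 in HF 5), XLOC_007288 (4.36 in HF 5), XLOC_010655 (0.881 in HF 6), XLOC_008247 (6.16 in HF_PBS 1) and XLOC_019485 (2.39 in HF_PBS 2). XLOC_027957 was at 0 in HF_5AzaD 7 and XLOC_017862 at 0 in HF 6, with the other 3 libraries above 0. XLOC_014697 read 174.6 FPKM in HF_5AzaD 6 against at most 1.70 in the others. XLOC_018252 read 3.71 FPKM in chow 3 and 1.85 in HF_PBS 2 against at most 0.0946 and 0.109. XLOC_024123 read 3.46 FPKM in HF_5AzaD 5 against at most 1.76, XLOC_024165 read 9.35 in HF_5AzaD 7 against at least 24.1, and XLOC_008420 read 15.0 in chow 2 against at least 22.2. XLOC_018293 read 4.23 FPKM in chow 3 against at most 3.01, and XLOC_015176 read 6.09 in HF 8, the HF library with the high striatum score, against at most 1.07.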

How the results depend on the processing

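HF against chow and HF_5AzaD against HF_PBS kept 0 calls under every alternative run, except 1 lower locus in the second without HF_5AzaD 7, or without the 4 libraries of high hypothalamus score; both leave out the 1 HF_5AzaD value of that locus above 0. Counts below are higher then lower loci without a symbol, and named where they moved over 1.5 times. Loci with a symbol were not counted under these alternatives, so no share over all loci stands beside them. With no minimum mean, HF_5AzaD had 130 and 304 against HF and 167 and 288 against chow. With a minimum mean of 5 FPKM, which leaves fewer loci to count, HF_PBS had 396 lower against HF and 284 and 427 against chow, and HF_5AzaD had 249 lower against HF and 182 and 275 against chow. With only the 2 groups compared, HF_PBS against HF had 119 and 408 and HF_5AzaD against HF 3 and 13. With array weights the higher counts against HF were 191 for HF_PBS and 123 for HF_5AzaD. Apart from the smaller sets of loci or libraries, the cause was not tested. Other pseudocounts, median centring, quantile normalization and keeping other statuses moved no count this far, and neither did leaving out loci of at least 1000 FPKM.

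Alternatives chosen after seeing the data were these. Without the 4 libraries of high striatum score, HF_PBS had 0 and 0 against HF and 0 and 1 against chow, and HF_5AzaD had 143 higher against HF. Without the 4 of high hypothalamus score, HF_PBS had 59 and 303 against HF and 55 and 262 against chow, and HF_5AzaD had 105 and 313 against HF and 49 and 163 against chow. Outside long runs the counts were 131 and 437, 229 and 442, 94 and 272, and 147 and 260 for HF_PBS against HF, HF_PBS against chow, HF_5AzaD against HF and HF_5AzaD against chow.

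With 1 library left out, HF_PBS against HF ranged from 133 to 399 higher and 415 to 730 lower, HF_PBS against chow from 189 to 499 and 470 to 780, HF_5AzaD against HF from 44 to 248 and 146 to 531, HF_5AzaD against chow from 57 to 334 and 116 to 503, HF against chow from 0 to 0, and HF_5AzaD against HF_PBS from 0 to 0 higher and 0 to 1 lower.

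Same-numbered libraries gave no sign of pairing: residual correlations were -0.164 to 0.024 for chow with HF_PBS and -0.107 to 0.064 for HF with HF_5AzaD, and none correlated best with its own number. With the replicate block, HF_PBS against chow had 233 higher, and HF_5AzaD against HF, over numbers 5 to 7, had 0 and 0, where the same 6 libraries without the block had 0 and 1.

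Of 40 named differences past the test, 22 stayed past it in every fit with 1 library left out. Without the 4 libraries of high hypothalamus score 21 lost the call. It was lost by 12 with no minimum mean, 11 with only the 2 groups compared and 6 with array weights. Over numbers 5 to 7, 10 of HF_5AzaD against HF lost it, with and without the block. None of 52 named differences reversed under any alternative. The median residual SD ran from 0.268 to 0.349 without a symbol and from 0.194 to 0.224 with one.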
